A study of Homo sapiens with 6 samples.

Results

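The ADAM and ADAMTS family comprises the 45 protein-coding genes of the count table whose symbol is ADAM, ADAMTS, ADAMTSL or ADAMDEC followed by a number, out of 58735 genes in all and 19951 protein-coding ones. RNA was sequenced from UE7T-9, a mesenchymal stem cell line from human bone marrow, in 3 Control libraries of genotype WT and 3 SRRM4 KO libraries. The SRRM4 KO cells were transduced by lentivirus with a CRISPR v2 vector against SRRM4, a splicing factor best known from neurons, and selected with puromycin. They are a line grown from 1 well after dilution to 1 cell per well, in which the study describes SRRM4 protein as reduced and not absent. Whether the Control cells had also been exposed to lentivirus is not clear from the sources used here, and cloning is described for the SRRM4 KO line alone, so a difference between the groups cannot be told apart from a difference between a clone and its parent culture. Nothing in the labels says that the 3 libraries of a group came from separate cultures, and p-values measure only the spread between these libraries.

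ADAM proteins are membrane-anchored metalloproteinases that cut other membrane proteins close to the cell surface and release their outer parts, a step called shedding. ADAM10 and ADAM17 are the best known of these sheddases. ADAMTS proteins are secreted relatives with thrombospondin repeats that cut the matrix: some degrade the proteoglycans aggrecan and versican, some trim the ends of procollagen, and ADAMTS13 cuts von Willebrand factor (VWF). ADAMTS-like (ADAMTSL) proteins share the repeats and lack the protease domain. In bone marrow stroma and cartilage these proteins are known for turning over the matrix that stromal cells lay down.

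The libraries held from 21496117 to 23868323 counts, of which family members took between 0.244% and 0.274%. A count of 0 allows up to 3 counts, or 0.123 to 0.139 CPM (depth-scaled counts, on library sizes scaled by the TMM method), a limit that covers counting error only. SRRM4 had 0 counts in each library, and the knockout could not be checked in the RNA. All 8 mesenchymal markers were detected and summed to 40990 to 45040 CPM in Control and 16940 to 18880 CPM in SRRM4 KO libraries, a sum made up mostly of COL1A1 and COL1A2. THY1, COL1A1, COL1A2 and PDGFRB were called lower. The other 4 were not called, NT5E and VIM at log2 fold changes of 0.52 and 0.36 and ENG and LUM at -0.34 and -0.86. Of the hematopoietic markers, CD14 and CD34 were tested and not called, SPI1 had 0 counts in each library and PTPRC had at most 2. HLA-DRA did not pass the filter, at 7, 11 and 9 counts in Control and 0, 4 and 1 in SRRM4 KO libraries, without overlap. The epithelial markers EPCAM and KRT5 had at most 2 counts in a library, and CDH1 had 9 to 39 and was not called. Of the neuronal markers RBFOX3 had at most 4 counts, while SYT1 (450 to 614 counts) and SNAP25 (36 to 97) were detected in each library and not called. Of the endothelial markers, PECAM1 had at most 3 counts in a library and CDH5 at most 1, while KDR and TEK were called lower, and the 4 summed to 21.5 to 25.3 CPM in Control and 3.29 to 4.82 CPM in SRRM4 KO libraries. The part of these markers in the results was not tested. In bulk RNA, fewer cells of a type and less RNA per cell cannot be told apart. Control replicate 1 stood apart, with 22403 genes counted against 20613 and 20674 in the other Control libraries.

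Family members were split in SRRM4 KO cells between 10 that changed, a pair of them at or near 0 in 1 group, and 21 that were not called, the most abundant protease ADAM9 among these. ADAMTS16 appeared and ADAM22 rose, while ADAM33, ADAM23, ADAMTS10, ADAMTS2, ADAMTS13, ADAMTSL3, ADAMTS15 and ADAM19 fell. The sheddases ADAM9, ADAM10 and ADAM17 had log2 fold changes between -0.17 and 0.05 and were not called. The test was edgeR's quasi-likelihood test over 15341 genes, and a call required a log2 fold change beyond 1 together with a Benjamini-Hochberg adjusted p below 0.05. Overlap of the groups was judged on CPM. Of the 45 members, 31 passed the filter on low counts, and 2 were called higher and 8 lower. Over all genes tested, 5.45% were called higher and 7.14% lower. The median log2 fold change of the tested members was -0.17, against -0.0052 for all tested genes. In 19 of the 31 tested members the groups did not overlap, and the same held for 51.8% of all genes tested. ADAMTS16 and ADAM33 passed the filter through 1 group alone, so counts over the members that passed are not a measure of the family.

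**Figure D1:**
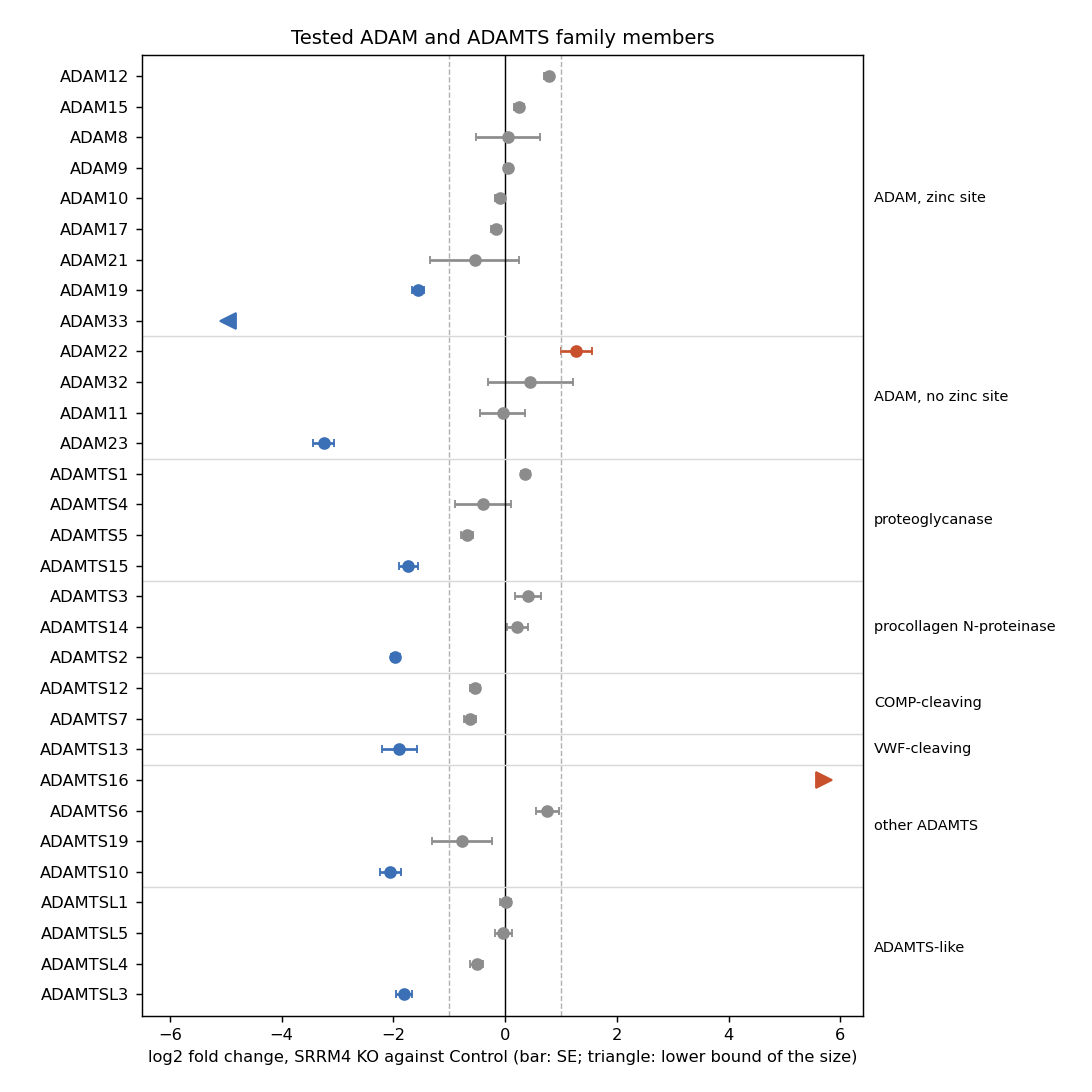
Log2 fold changes of the 31 tested family members, SRRM4 KO against Control, arranged by role. Points are fitted values with their standard error, dashed lines mark the threshold of 1, red and blue mark genes called higher and lower, and triangles mark the lower bounds of ADAMTS16 and ADAM33. Called members appear in each role group except the COMP-cleaving pair, and the 2 called higher are in the group of ADAM proteins without the zinc site and among the other ADAMTS proteins.

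The zinc site of the catalytic domain holds the metal ion that cutting needs. It was searched for in frame in the coding sequence of 1 GENCODE release 29 transcript per member, by the pattern known as the metzincin zinc-binding motif. The site is 11 codons long, with a glycine or asparagine codon accepted at codon 8. It was found in 30 of the 45 members, in 23 of the 31 tested and in 7 of the 10 called. The called members without it were ADAM22, ADAM23 and ADAMTSL3. The coding strands of the 7 called members that have the site are shown with that of ADAM12 for comparison, because they are the catalytic stretch that these called members have in common. Capitals mark the 33 bases of the 11 codons, and lower case marks 6 bases on each side.
ADAM19: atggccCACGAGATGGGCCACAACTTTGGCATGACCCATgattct
ADAM33: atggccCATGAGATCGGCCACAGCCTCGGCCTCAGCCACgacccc
ADAM12: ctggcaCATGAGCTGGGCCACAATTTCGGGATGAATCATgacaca
ADAMTS2: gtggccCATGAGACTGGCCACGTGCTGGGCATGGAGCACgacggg
ADAMTS10: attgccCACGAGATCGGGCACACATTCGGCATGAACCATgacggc
ADAMTS13: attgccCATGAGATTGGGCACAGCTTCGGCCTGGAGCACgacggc
ADAMTS15: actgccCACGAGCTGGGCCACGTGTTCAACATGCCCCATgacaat
ADAMTS16: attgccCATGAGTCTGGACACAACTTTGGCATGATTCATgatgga
In GRCh38 the ADAM19 site lies at chr5:157505734-157505766 and the ADAM33 site at chr20:3673422-3673454, both on the minus strand and within exon 11 of the transcript searched. The ADAM12 site lies at chr10:126094059-126094091 on the minus strand, also in exon 11. In the ADAMTS genes shown an intron interrupts the codons. They run from exon 8 to exon 9 of ADAMTS16 (chr5:5191774-5200147, plus strand), exon 7 to 8 of ADAMTS2 (chr5:179154177-179154830, minus strand), exon 10 to 11 of ADAMTS10 (chr19:8596204-8596323, minus strand) and exon 6 to 7 of ADAMTS13 (chr9:133426329-133428649, plus strand). The ADAMTS15 codons lie within chr11:130461612-130462109 on the plus strand, in exons 2 and 3. ADAMTS15 has an asparagine codon at codon 8, as do ADAMTS1, ADAMTS4 and ADAMTS9, and the other 26 members with a site have a glycine codon. ADAMDEC1, listed here among the ADAM proteins with the motif, did not match, nor did ADAMTS8.

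The proteolytic ADAM group had 13 listed members, of which 9 were tested, 0 called higher and 2 called lower. The shares over all genes tested were 5.45% higher and 7.14% lower, and ADAM33 passed the filter through Control alone. ADAM33, a protease known as an asthma susceptibility gene, is on the minus strand of chromosome 20 (3667965 to 3682246, GRCh38). Control libraries held 65, 93 and 111 counts of it and SRRM4 KO libraries 1, 0 and 0. The groups did not overlap, and the fall is at least 31.2-fold against 3 counts per library (adjusted p = 2.17e-07). ADAM19, also called meltrin beta and known for shedding neuregulin, is on chromosome 5 (157395534 to 157575775, minus strand). Its counts were 1260, 1407 and 1266 in Control and 483, 525 and 396 in SRRM4 KO libraries, or 60.0 ± 4.58 and 20.4 ± 2.09 CPM (SD, n = 3). Each SRRM4 KO library was below each Control library, with a log2 fold change of -1.56 (SE, the standard error, 0.112; adjusted p = 3.69e-08). ADAM19 shares 62 exonic bases with CYFIP2 on the other strand, and the libraries were not stranded.

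ADAM12, meltrin alpha, moved the other way from ADAM19 and ADAM33, without reaching the fold change threshold. ADAM12 had 3560, 3254 and 3357 counts in Control and 6067, 6267 and 5940 in SRRM4 KO libraries. All SRRM4 KO libraries were above all Control libraries, with a log2 fold change of 0.78 (SE 0.078, adjusted p = 1.20e-06). The ADAM12 to ADAM19 ratio of levels per kilobase of gene length was 2.03 ± 0.204 in Control and 10.3 ± 1.26 in SRRM4 KO libraries (SD, n = 3; exact two-sided permutation p = 0.10, the smallest that 3 against 3 libraries allow). ADAM15, which carries an integrin-binding sequence, was also above Control in each SRRM4 KO library, at a log2 fold change of 0.25 (adjusted p = 0.0351). The adjusted p of ADAM15 was 0.0606 with upper-quartile normalization, 0.0664 with the replicate number as a block, 0.0885 without Control replicate 2, 0.162 without SRRM4 KO replicate 1 and 0.136 without SRRM4 KO replicate 2.

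The sheddases ADAM9, ADAM10 and ADAM17 were not called. ADAM9 was the most abundant family member, at 22073, 19471 and 20566 counts in Control and 21447, 23077 and 22697 in SRRM4 KO libraries. The ranges overlapped, and the log2 fold change was 0.05 (SE 0.071, adjusted p = 0.618). ADAM10, with 7152, 6263 and 6063 counts against 5771, 6784 and 6573, had a log2 fold change of -0.09 (SE 0.088, adjusted p = 0.433). ADAM17, which releases tumor necrosis factor and several epidermal growth factor (EGF) ligands, had 1718, 1557 and 1614 counts in Control and 1412, 1604 and 1529 in SRRM4 KO libraries. On the CPM scale each SRRM4 KO library was below each Control library, and the log2 fold change was -0.17 (SE 0.089, adjusted p = 0.140). The median gene of chromosome 2, where ADAM17 lies, was at -0.246, and after centring by chromosome ADAM17 was at 0.0742. ADAM17 shares 1323 exonic bases with IAH1 on the other strand, so part of its reads cannot be assigned by strand. ADAM8 and ADAM21 had at most 21 counts in a library and log2 fold changes of 0.05 and -0.54 with standard errors of 0.575 and 0.794. Without SRRM4 KO replicate 2, which had 21 counts of ADAM21 against 2 and 2 in the others, ADAM21 was at -2.46 (adjusted p = 0.0599).

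Of the 8 ADAM proteins without the zinc site, 4 were tested, and ADAM22 and ADAM23 changed in opposite directions. Both are cell surface proteins of neurons that bind the secreted LGI proteins instead of cutting substrates. ADAM23 on chromosome 2 (206443539 to 206621130) had 626, 779 and 563 counts in Control and 75, 91 and 52 in SRRM4 KO libraries. This is a fall from 30.1 ± 5.55 to 3.16 ± 0.711 CPM (SD, n = 3), or by 3.25 on the log2 scale (SE 0.190, adjusted p = 4.17e-09). ADAM22 on chromosome 7 (87934143 to 88202889) had 50, 34 and 31 counts in Control and 88, 115 and 90 in SRRM4 KO libraries. The groups did not overlap, and the log2 fold change was 1.27 (SE 0.281, adjusted p = 0.00191). ADAM22 was not called by glmTreat, edgeR's test against the fold change threshold. The ADAM22 to ADAM23 ratio per kilobase went from 0.0313 ± 0.00975 to 0.731 ± 0.157 (SD, n = 3; exact two-sided permutation p = 0.10), and in each SRRM4 KO library the order of the pair was reversed between the scales, ADAM22 being under ADAM23 per kilobase and above it in CPM. Of the ligands, LGI1 to LGI4, none passed the filter, and together they summed to at most 1.58 CPM in a library. LGI2, not tested, had 9, 30 and 5 counts in Control and 0, 1 and 1 in SRRM4 KO libraries, without overlap. ADAM11 and ADAM32 overlapped between the groups, with log2 fold changes of -0.04 and 0.45. Over the fits that left out a library, ADAM11 ran from -0.51 to 0.34 and ADAM32 from -0.12 to 1.09. The median gene of chromosomes 2 and 7 was at a log2 fold change of -0.25 on each of them, the same sign as the change of ADAM23 and the opposite sign to that of ADAM22.

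**Figure D2:**
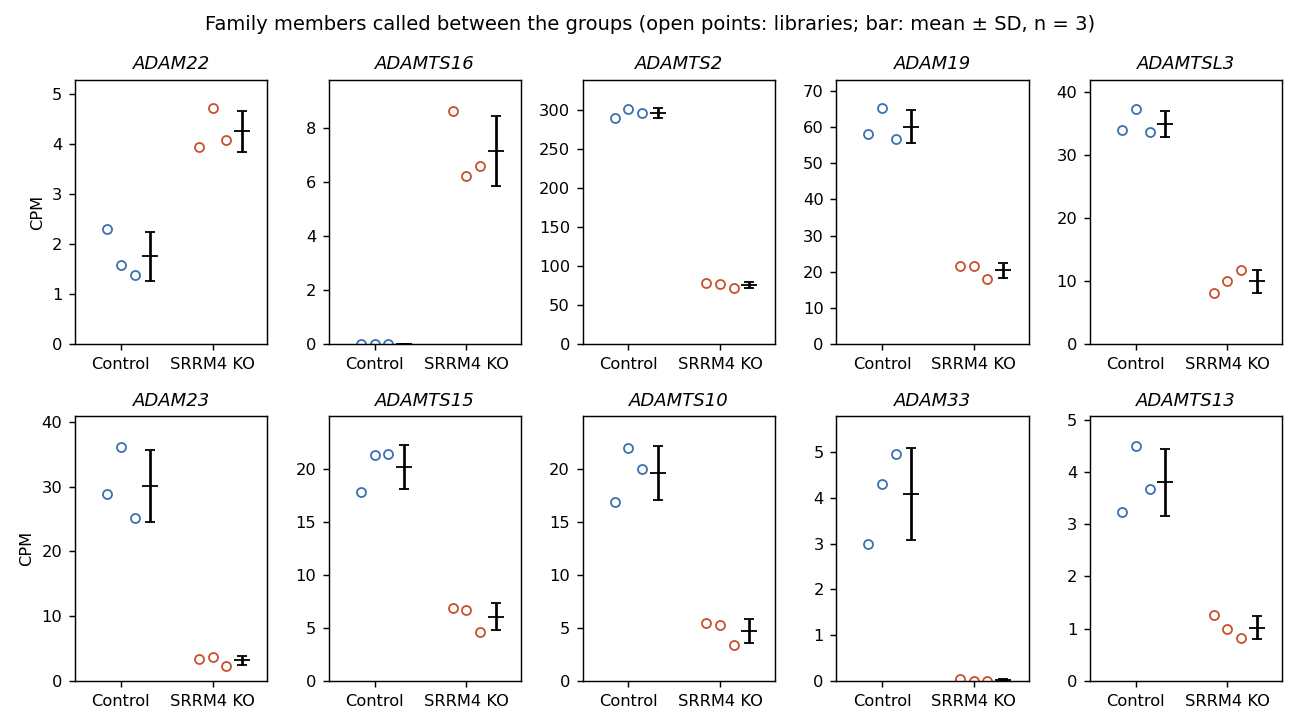
Levels of the 10 called family members in CPM, each panel from 0, with 3 Control libraries in blue and 3 SRRM4 KO libraries in red; bars give mean ± SD. In each panel the groups are apart, ADAMTS16 being at 0 in all Control libraries and ADAM33 at or near 0 in all SRRM4 KO libraries.

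Procollagen N-proteinases remove the amino-terminal propeptide of fibrillar procollagens, and the most abundant of them fell. ADAMTS2 on chromosome 5 (179110851 to 179345430, minus strand) had 6267, 6501 and 6618 counts in Control and 1760, 1865 and 1570 in SRRM4 KO libraries. Levels were 296 ± 6.31 CPM in Control and 75.6 ± 3.91 CPM in SRRM4 KO libraries (SD, n = 3), and ADAMTS2 fell by 1.97 on the log2 scale (SE 0.081, adjusted p = 1.02e-10). ADAMTS14 had 224, 391 and 320 counts against 428, 408 and 301, and ADAMTS3 had 123, 64 and 105 against 126, 135 and 143. Both overlapped between the groups, with log2 fold changes of 0.21 (adjusted p = 0.395) and 0.41 (adjusted p = 0.184). Without Control replicate 1 ADAMTS14 was at 0.0266 and ADAMTS3 at 0.62 (adjusted p = 0.0487 for ADAMTS3), and neither was called. The summed level of the 3 enzymes had a mean of 37.2 CPM per kilobase in Control and 12.6 in SRRM4 KO libraries, and ADAMTS14 stood at 0.0796 ± 0.0202 of the ADAMTS2 level in Control and 0.361 ± 0.0426 in SRRM4 KO libraries (SD, n = 3).

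Of 7 proteoglycanases, which cut aggrecan and versican, 4 were tested, with 0 called higher and 1 lower. All genes tested gave 5.45% higher and 7.14% lower. ADAMTS15 on chromosome 11 (130448974 to 130476641) had 385, 459 and 476 counts in Control and 153, 162 and 101 in SRRM4 KO libraries, a log2 fold change of -1.73 (SE 0.170, adjusted p = 9.43e-07). ADAMTS5, the chief aggrecanase of mouse cartilage, had 2986, 2318 and 2414 counts in Control and 1677, 1723 and 1623 in SRRM4 KO libraries. The groups did not overlap, and its log2 fold change of -0.69 (adjusted p = 7.27e-05) was under the fold change threshold. ADAMTS1 had 3611, 3846 and 3770 counts against 4718, 5235 and 5164, with a log2 fold change of 0.36 (adjusted p = 0.00179). ADAMTS1 and ADAMTS5 are neighbours on the minus strand of chromosome 21, with 72502 bases between them. Their ratio per kilobase was 1.55, 2.13 and 2.00 in Control and 3.61, 3.90 and 4.08 in SRRM4 KO libraries (exact two-sided permutation p = 0.10). ADAMTS4 had 13 to 46 counts and overlapped between the groups (log2 fold change -0.40, adjusted p = 0.559; -1.09 without SRRM4 KO replicate 1), and ADAMTS8, ADAMTS9 and ADAMTS20 were not tested. Summed per kilobase, the group stood at 41.0 ± 1.13 in Control and 40.5 ± 1.51 in SRRM4 KO libraries (SD, n = 3).

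ADAMTS7 and ADAMTS12, which cut cartilage oligomeric matrix protein (COMP), were both lower in each SRRM4 KO library. ADAMTS7 had 3352, 4276 and 4333 counts in Control and 2741, 3013 and 2333 in SRRM4 KO libraries (log2 fold change -0.63, adjusted p = 1.64e-04). ADAMTS12 had 2206, 1972 and 1945 against 1447, 1530 and 1413 (log2 fold change -0.55, adjusted p = 1.66e-04). Neither reached the fold change threshold, and their ratio did not separate the groups (exact two-sided permutation p = 0.60). ADAMTS7 has pseudogene copies with which it may share reads. ADAMTS13, the VWF-cleaving protease made mainly in the liver, fell from 70, 97 and 82 counts to 28, 24 and 18. Its log2 fold change was -1.89 (SE 0.318, adjusted p = 2.03e-04). It is on chromosome 9, whose median gene was at -0.24.

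**Figure D3:**
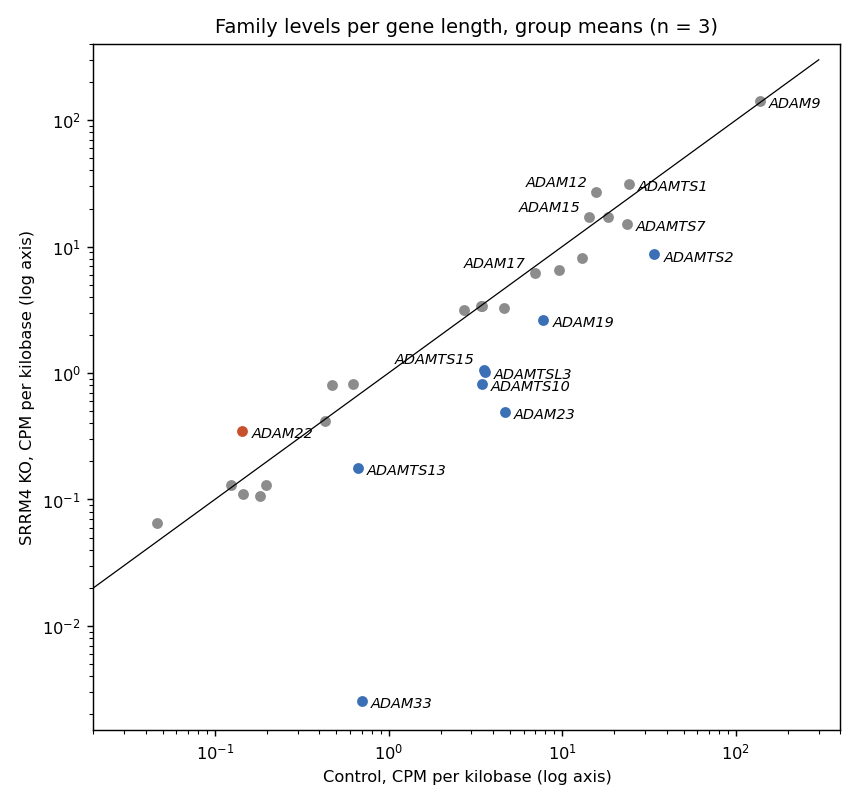
Mean levels of the tested family members in Control and SRRM4 KO libraries in CPM per kilobase, both axes logarithmic, n = 3 libraries per group, with the line of equal level. ADAMTS16 is not drawn because its Control mean is 0; the SRRM4 KO mean of ADAM33 rests on 1 count. Members called lower lie below the line at Control levels from 0.666 (ADAMTS13) to 33.9 (ADAMTS2), and ADAM9 lies apart at the top.

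ADAMTS16 was the family member with the largest rise. ADAMTS16, a protease reported to cut fibronectin and linked to blood pressure and kidney development, is on the plus strand of chromosome 5 (5140330 to 5320304). No read was counted in Control (0, 0 and 0), while SRRM4 KO libraries held 192, 151 and 145 counts, or 7.14 ± 1.30 CPM (SD, n = 3). Against 3 counts per library it was at least 52.0-fold higher (adjusted p = 2.96e-08). Its closest relative ADAMTS18 had 0 counts in Control and 3, 2 and 1 in SRRM4 KO libraries, at or under that limit in both groups. ADAMTS10, which binds fibrillin-1, fell from 366, 473 and 445 counts to 121, 129 and 75, a log2 fold change of -2.05 (SE 0.185, adjusted p = 4.07e-07). Its relative ADAMTS6 had 73, 101 and 93 counts in Control and 160, 191 and 124 in SRRM4 KO libraries, with a log2 fold change of 0.76 (SE 0.209, adjusted p = 0.00868, and 0.0518 without SRRM4 KO replicate 2). The ratio of ADAMTS6 to ADAMTS10 per kilobase went from 0.138 ± 0.00478 to 0.989 ± 0.110 (SD, n = 3; exact two-sided permutation p = 0.10). ADAMTS19 had 9 to 27 counts and overlapped between the groups (log2 fold change -0.77, adjusted p = 0.272).

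Of the ADAMTS-like proteins, ADAMTSL3 was the one called. It had 737, 807 and 753 counts in Control and 180, 246 and 258 in SRRM4 KO libraries, a fall from 35.1 ± 2.06 to 9.97 ± 1.83 CPM (SD, n = 3) and a log2 fold change of -1.81 (SE 0.143, adjusted p = 9.41e-08). ADAMTSL1 had 928, 1093 and 1013 counts against 1145, 1116 and 933. Its log2 fold change of 0.0074 (SE 0.107) changed sign with the normalization, and the ratio of ADAMTSL1 to ADAMTSL3 per kilobase was 0.943 ± 0.0375 in Control and 3.46 ± 0.998 in SRRM4 KO libraries (SD, n = 3). ADAMTSL4, which supports fibrillin microfibrils, was lower in each SRRM4 KO library at a log2 fold change of -0.51 (adjusted p = 0.00242), and ADAMTSL5 was at -0.03 (adjusted p = 0.890). THSD4 and PAPLN, relatives of this group under other names, were at log2 fold changes of 0.78 and -0.70, neither beyond the fold change threshold. ADAMTSL2 had at most 3 counts in a library.

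**Figure D4:**
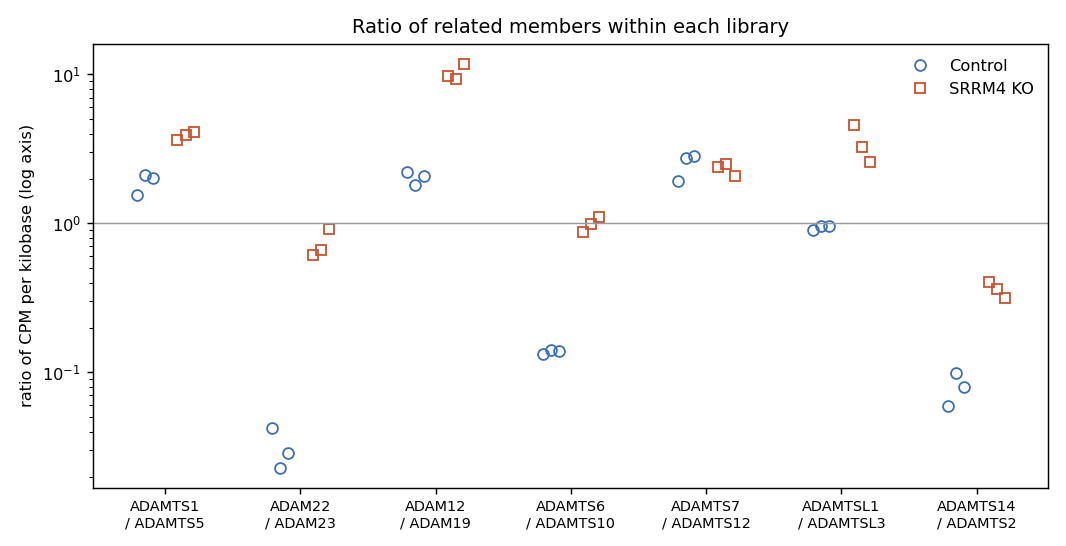
Ratio of the levels of 7 pairs of related members within each library, as CPM per kilobase on a log axis, with 3 Control libraries (circles) and 3 SRRM4 KO libraries (squares). The groups are apart in 6 pairs and overlap for ADAMTS7 to ADAMTS12.

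The 7 ratios were chosen after the values of their members were seen. Adjusted over the 7 pairs, the exact permutation p was 0.117 for the 6 pairs without overlap, and 3 libraries per group cannot reach 0.05. Per kilobase, the order of levels in Control was ADAM9 (137 ± 8.92), ADAMTS2 (33.9 ± 0.723), ADAMTS1 (24.3 ± 0.889), ADAMTS7 (23.6 ± 3.12), ADAM10 (18.4 ± 1.84), ADAM12 (15.7 ± 0.792) and ADAM15 (14.3 ± 1.09), as mean CPM per kilobase with SD (n = 3). ADAMTS1 and ADAMTS7 did not differ beyond their spread, nor did ADAM12 and ADAM15, and ADAMTS7 and ADAM10 changed places in Control replicate 1. In SRRM4 KO libraries ADAMTS1 (31.2 ± 1.76) and ADAM12 (27.0 ± 0.818) followed ADAM9 (142 ± 6.47), and ADAMTS2 stood at rank 7. ADAM9 made up 40.6% ± 1.95 of the summed level of the family in Control and 46.8% ± 1.19 in SRRM4 KO libraries (SD, n = 3). The summed level itself was 338 ± 7.08 and 303 ± 6.2 CPM per kilobase.

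The 14 members that did not pass the filter had at most 7 counts in a library. ADAM2, ADAM7, ADAM18, ADAM30, ADAMDEC1 and ADAMTS8 had 0 counts in all 6 libraries. ADAM20, ADAM28, ADAM29, ADAMTS9, ADAMTS17, ADAMTS18, ADAMTS20 and ADAMTSL2 had at least 1. ADAM2, ADAM18, ADAM20 and ADAM30 are known from the testis, ADAM7 from the epididymis. The 14 genes were left out of the main test. In the fit with no filter, those with at least 1 count were tested and none was called. ADAMTS18 did not overlap between the groups, at 0 counts in Control and 3, 2 and 1 in SRRM4 KO libraries, all within the limit of 3 counts.

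Genes that act with the family were taken from lists of inhibitors, activating enzymes, cofactors and substrates. Of 75 such genes 64 were tested, with 6 called higher and 17 lower and a median log2 fold change of -0.15, beside 5.45% called higher, 7.14% called lower and a median of -0.0052 over all genes tested. Among inhibitors, TIMP3, the tissue inhibitor of metalloproteinases that blocks ADAM17 and the ADAMTS aggrecanases, fell from 6930, 6700 and 6916 counts to 622, 561 and 560. Its log2 fold change was -3.62 (SE 0.095, adjusted p = 8.58e-13). It was the gene called among the 6 tested of this list. TIMP1 was higher in each SRRM4 KO library (log2 fold change 0.56) and RECK, a membrane-bound inhibitor of metalloproteinases, was lower (-0.74), both under the fold change threshold. TIMP2, the most abundant of them, was at 0.14 (adjusted p = 0.0504). TIMP4 was at 0.95, ran from 0.75 to 1.23 over the fits that left out a library, and was called without Control replicate 1 or SRRM4 KO replicate 3. LRP1, listed with the inhibitors for uptake, was lower in each SRRM4 KO library and not called (-0.61, adjusted p = 7.56e-05). A2M did not pass the filter, at 6, 22 and 20 counts in Control and 0, 0 and 0 in SRRM4 KO libraries, without overlap.

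Proprotein convertases remove the inhibitory prodomain of most family members. PCSK5 fell from 320, 313 and 265 counts to 115, 135 and 146 (log2 fold change -1.25, adjusted p = 2.26e-05), and PCSK6 fell from 43, 66 and 50 to 7, 13 and 6 (-2.67, adjusted p = 2.27e-04). FURIN was higher in each SRRM4 KO library, at a log2 fold change of 0.60 (adjusted p = 5.23e-04), and PCSK7 was at -0.02. Of 9 cofactors of ADAM10 and ADAM17, TSPAN14 was called higher and TSPAN15 lower; both are tetraspanins that carry ADAM10 to the cell surface. TSPAN14 had 807, 901 and 1027 counts in Control and 2389, 2407 and 2141 in SRRM4 KO libraries (log2 fold change 1.28, adjusted p = 8.37e-08). TSPAN15 had 92, 138 and 119 against 30, 60 and 41 (-1.49, adjusted p = 5.35e-04). TSPAN33, with at most 28 counts in a library, was at -1.51 (adjusted p = 0.0631) and was called lower without SRRM4 KO replicate 1 (-2.23). RHBDF2, which brings ADAM17 to the surface, was at 0.85 and TSPAN5 at 0.80, both without overlap between groups.

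Of 25 proteins that ADAM proteases shed, 22 were tested, with 5 called higher and 2 lower. The shares over all genes tested were 5.45% higher and 7.14% lower. The 5 that rose were CD44, a hyaluronan receptor, and the EGF-family ligands TGFA, HBEGF, BTC and AREG. TGFA had 265, 260 and 269 counts in Control and 1169, 1346 and 1152 in SRRM4 KO libraries (log2 fold change 2.14, SE 0.106, adjusted p = 6.62e-10). HBEGF had 324, 336 and 344 against 1390, 1432 and 1376 (log2 fold change 2.00, SE 0.102, adjusted p = 8.71e-10). BTC (log2 fold change 1.51) and AREG (1.77) were at most 274 counts in a library and did not overlap between the groups, while EREG had 15 to 30 counts and overlapped. NRG1, a further ligand of this family, was above Control in each SRRM4 KO library and not called (log2 fold change 0.76, adjusted p = 5.17e-05). NOTCH3 fell by 2.46 on the log2 scale and L1CAM fell by 3.65. NOTCH1 and NOTCH2, classical ADAM10 substrates, were at 0.15 and -0.0044. The Notch ligands JAG1 (-0.89) and DLL1 (-0.99) and the cadherin CDH2 (-0.69) were below Control in each SRRM4 KO library and not called. DLL1 was called without Control replicate 1 or SRRM4 KO replicate 1, at -1.32 in the lowest of these.

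**Figure D5:**
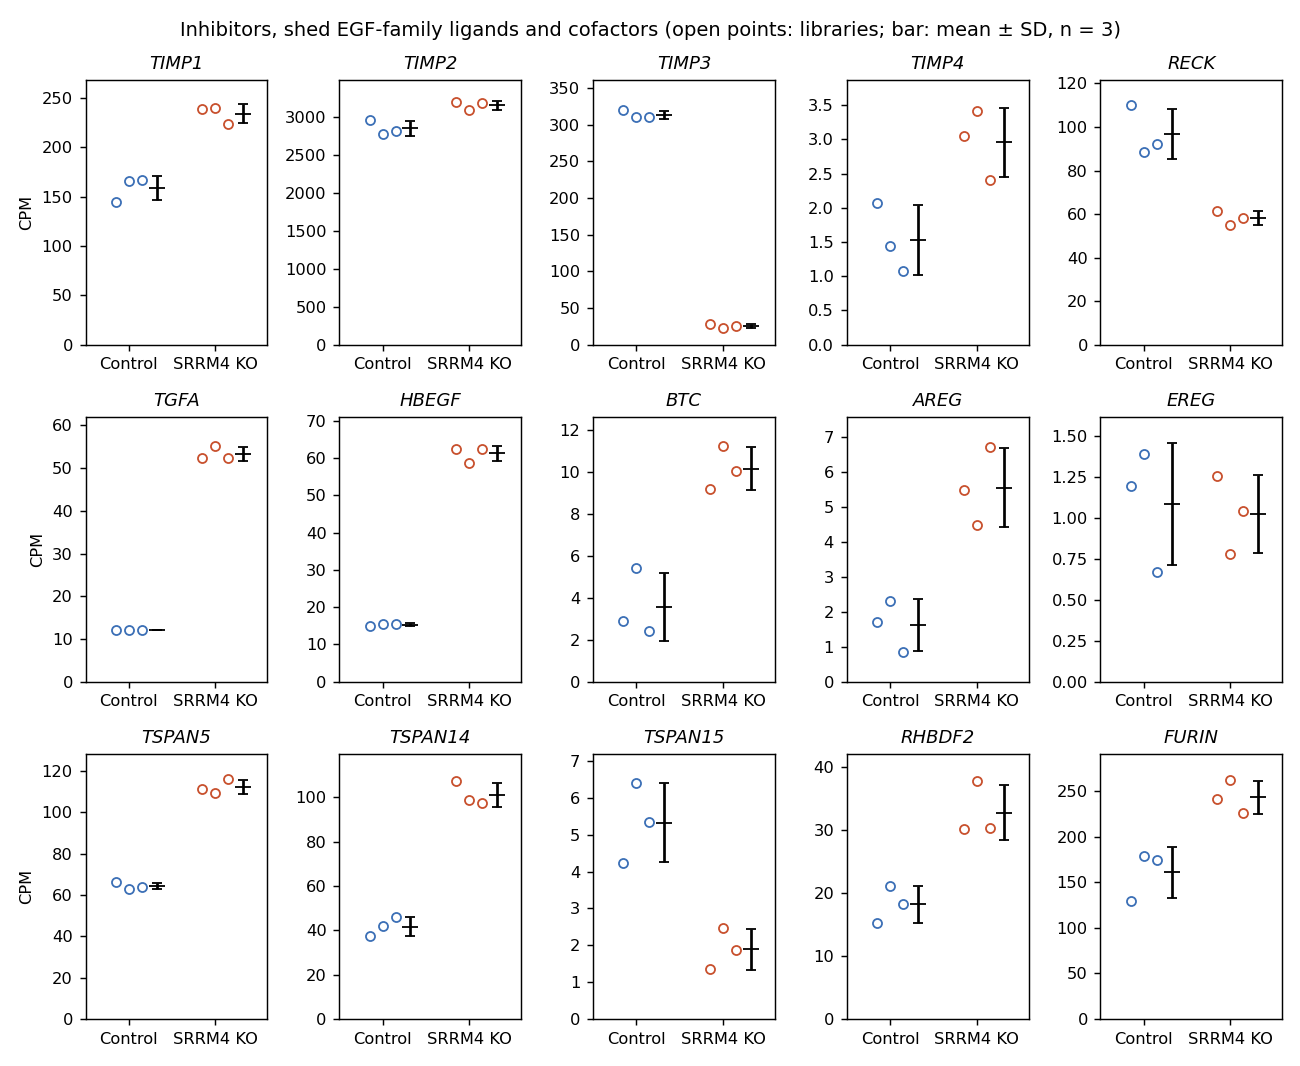
Levels in CPM of 15 genes that act with the family, each panel from 0, in 3 Control (blue) and 3 SRRM4 KO (red) libraries with mean ± SD. The upper row gives inhibitors, of which TIMP3 was called lower, the middle row 5 EGF-family ligands, of which TGFA, HBEGF, BTC and AREG were called higher and EREG was not, and the lower row cofactors and FURIN.

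Of 22 matrix substrates and partners 19 were tested, with 11 called lower and 0 called higher and a median log2 fold change of -1.23. The shares over all genes tested were 7.14% lower and 5.45% higher, with a median of -0.0052. Versican (VCAN), at 0.09 (adjusted p = 0.544), was the one of the 19 with a positive value. COL1A1 (log2 fold change -1.23), COL1A2 (-1.70), COL3A1 (-1.48) and COL5A1 (-1.05), fibrillar chains of which types I and III are cut by ADAMTS2, were the called genes with the highest mean CPM, not scaled by gene length. COL5A1 was at -0.98 without SRRM4 KO replicate 3. ACAN (aggrecan), chosen after its values were seen, had 2947 to 3460 counts in Control and 0 in SRRM4 KO libraries, at least 1120-fold lower. ACAN passed the filter through Control alone, so the count of called genes is not a measure of this list. FBN1, the partner of ADAMTS10, was at -0.44 (adjusted p = 3.27e-04) and FN1 at -0.97. FN1 passed the fold change threshold without Control replicate 2, Control replicate 3 or SRRM4 KO replicate 1, at -1.01 in the lowest of these. POFUT2 and B3GLCT, which glycosylate thrombospondin repeats, were at -0.15 and -0.06.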

How the data were processed

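Non-stranded mRNA-seq of 3 Control and 3 SRRM4 KO libraries was analysed, and samples were grouped by their titles. The table deposited by the authors holds unnormalized read counts of 58735 genes. Per the labels, HISAT2 2.0.5, featureCounts 1.5.0-p3 and DESeq2 were used; the genome build is not given in the sources used here, nor is the treatment of multi-mapping reads. All 58735 gene IDs were found in GENCODE release 29 (GRCh38), 58724 with the same start and end, and all 45 family members with the same start, end and strand. The gene length deposited by the authors served for levels per kilobase.

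Counts were tested with edgeR 4.0.16 in R 4.3.3 (TMM, filterByExpr, prior count 0.125, quasi-likelihood test, Benjamini-Hochberg over all genes tested). Standard errors were derived from the test's F statistic. For ADAMTS16, ADAM33 and ACAN, with at most 3 counts in every library of 1 group, the fold printed is a lower bound that sets those libraries at 3 counts. The sources used here do not state the authors' test beyond DESeq2, which was an alternative. The other alternatives were normalization, filters, glmTreat, protein-coding genes alone, calls by adjusted p alone, centring by chromosome, a replicate block and each library left out. The procedure was checked on simulated counts. Members and lists were chosen with earlier results of these data known. Every member called is named with its counts, every other tested member with its fold change, and the untested ones as a group. Of related lists, called genes are named, at most 4 per direction by mean CPM; AREG, the endothelial pair and genes not called were named after their values were seen. Exact permutation tests of ratios were two-sided. Overlapping exons and zinc sites came from GENCODE. No column was left unassigned.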

Additional observations from a re-analysis of the deposited data

How the results depend on the processing

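The 10 called family members were the same genes in each of the 6 fits that left out a library (2 higher and 8 lower). They were also the same with both other normalizations, with no filter, with DESeq2 and with protein-coding genes alone. Centring by chromosome left the same 10, but it only subtracts the chromosome median from the fold change. The adjusted p was kept, and no test was rerun for it. Where every library had to hold 10 counts, 25 members were tested and 1 was called higher, since ADAMTS16 and ADAM33 could not be tested. The glmTreat test called 1 higher, ADAMTS16, and not ADAM22, with 360 genes higher and 577 lower in all. Of the related genes it called 4 higher and 14 lower, against 6 and 17 in the main fit. With no fold change threshold, 6 members were higher and 12 lower (3171 and 3213 of all genes tested, against 836 and 1096), and 17 and 28 of the related genes. Leaving out a library gave 6 to 7 related genes higher and 17 to 21 lower. With the replicate number as a block, 2 members were called higher and 8 lower, and 6 related genes higher and 18 lower. Same-numbered libraries deviated from their group means with correlations of -0.0862, 0.109 and -0.102. With 3 libraries per group these values depend on each other and cannot decide whether the numbers pair the samples. Directions were not settled for members near 0: after centring by chromosome ADAM9 was at -0.0351, ADAM17 at 0.0742 and ADAM8 at -0.0227, and ADAMTSL1 was at -0.0236 with upper-quartile normalization, -0.0112 with 10 counts in every library and -0.00812 with protein-coding genes only. Over the fits that left out a library, ADAMTSL1 ran from -0.0755 to 0.0754, ADAMTSL5 from -0.115 to 0.0332, ADAM11 from -0.51 to 0.34, ADAM8 from -0.15 to 0.51 and ADAM32 from -0.12 to 1.09. Without change of sign, ADAM21 ran from -2.46 to -0.11, ADAMTS4 from -1.09 to -0.0990, ADAMTS19 from -1.26 to -0.53, ADAMTS14 from 0.0266 to 0.42 and ADAMTS3 from 0.18 to 0.62, none called in any of these fits. The cause was not tested. ADAM8, ADAM11, ADAM21, ADAM32, ADAMTS4 and ADAMTS19 had standard errors of 0.401 to 0.794 on the log2 scale, and how much of this is depth was not tested.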

Other observations

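Rows of the count table that carry an ADAM symbol and are no family members, being pseudogenes and antisense transcripts, numbered 18. Of these, 11 had 0 counts in all libraries and the highest count in a library was 15, in ADAM1B. ADAMTS7P4, a pseudogene copy of ADAMTS7, had 11, 6 and 4 counts in Control and 6, 0 and 5 in SRRM4 KO libraries.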
